A study of Mus musculus with 123 samples.

Results

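The nuclear genes of the mitochondrial respiratory chain and the ATP synthase were followed in single αMHC-GFP+ cells of the mouse heart at E9.5, E12.5 and P1. Members were chosen by gene symbol alone: every symbol of the count table that begins with Ndufa, Ndufb, Ndufc, Ndufs, Ndufv, Uqcr, Cox5, Cox6, Cox7 or Atp5, together with Sdha, Sdhb, Sdhc, Sdhd, Cyc1 and Cycs. The isoform genes Cox6a1, Cox6a2, Cox7a1 and Cox7a2 were left out. This gave 82 of the 23337 symbols, of which 42 carry a complex I symbol, 4 belong to complex II, 9 to complex III, 9 to complex IV, 17 to complex V (the ATP synthase) and 1, Cycs, encodes cytochrome c. Among them, 8 encode no structural subunit: the assembly factors Ndufaf1, Ndufaf2, Ndufaf3 and Ndufaf4, the paralog Ndufa4l2, the supercomplex factor Cox7a2l, and Atp5s and Atp5sl, which were taken in by the prefix.

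Complex I takes electrons from NADH and complex II takes them from succinate, both pass them through coenzyme Q to complex III, and cytochrome c carries them on to complex IV, where oxygen is reduced. Complexes I, III and IV pump protons out of the matrix, and the ATP synthase makes ATP as protons return through its c ring. Cardiomyocytes (CMs) are packed with mitochondria and depend on this chain for contraction, increasingly so as the heart matures. The subunits encoded in mitochondrial DNA have no symbols in the tables, so every value below concerns nuclear transcripts.

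All cells came from hearts of mice labelled with the strain aMHC-GFP, in which the α myosin heavy chain promoter drives GFP and so marks CMs, and there was no other genotype or treatment. The files hold 42 E9.5, 29 E12.5 and 52 P1 cells, and those in which at least 2000 genes had a count were analysed, which kept every embryonic cell and 41 of the P1 cells. The labels name no animal, litter or chip, so each time point was 1 sample of pooled cells, and no p-value or standard error over cells is given. E9.5 and E12.5 hearts were digested with collagenase type I and P1 hearts with Liberase, and the enzyme and the step to P1 cannot be told apart.

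Total counts of the kept cells ran from 69522 to 7711355. By the prefix of the cell titles, which the labels do not explain, the cells formed naming sets: C (14 cells) and N530 (28 cells) at E9.5, C (20 cells) and N523 (8 cells) at E12.5, and C alone at P1, with 1 further E12.5 cell under a prefix of its own. Set N530 was sequenced more deeply and supplied 94.5% of the E9.5 counts, and set N523 supplied 82.7% of the E12.5 counts, whereas set C was present at all 3 time points. Levels are CPM (counts per 1000000) of the summed cells with exact 95% Poisson intervals, which cover counting error only, and ratios are given with their range over the combinations of naming sets. At least 4 of 6 CM genes (Tnnt2, Actc1, Myh6, Myh7, Ttn, Tnni1) were at 50 CPM or more in 39 of the 42 E9.5 cells, 28 of the 29 E12.5 cells and 40 of the 41 P1 cells. At E9.5 this held for 11 of the 14 cells of set C and for 28 of the 28 cells of set N530. The summed level of 7 CM markers was 60519, 35387 and 73042 CPM over the time points, and at E9.5 it was 25734 CPM in set C and 62557 CPM in set N530. Endothelial (62.5, 0.0594 and 233 CPM), fibroblast (206, 51.3 and 3.37 CPM), epicardial (186, 33.3 and 21.4 CPM), erythroid (5.21, 0.0396 and 0 CPM) and macrophage (42.1, 6.69 and 0 CPM) lists were low in pooled cells. Single cells were higher, up to 1246 CPM (endothelial), 4007 CPM (fibroblast) and 2695 CPM (epicardial) at E9.5 and 7697 CPM (endothelial) at P1. Of the defining genes, Pecam1 was at 0 in all E12.5 cells, Postn and Dcn were at 0 at E9.5 and P1, and C1qa was at 0 throughout. Smooth muscle genes, which embryonic CMs also express, summed to 5668, 2113 and 1468 CPM, with Myh11 at 0 at E12.5 and P1; the part of these levels in the results below was not tested.

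Transcripts of all 5 complexes were more abundant at each later time point. The summed members rose from 29042 CPM (95% interval 29008 to 29075) at E9.5 to 54592 CPM (54527 to 54656) at E12.5 and 87830 CPM (87608 to 88053) at P1, a 3.02-fold higher level at P1 than at E9.5. On the log2 scale the ratio was 1.60, with 1.58 and 1.86 in the 2 combinations of naming sets. Per cell, the summed level had a lowest, median and highest value of 12060, 24206 and 53977 CPM (E9.5), 22167, 48449 and 71703 CPM (E12.5), and 12209, 90294 and 125073 CPM (P1). At P1 39 of the 41 cells lay above every E9.5 cell and 33 above every E12.5 cell. The lowest P1 cell, which was also the only one without the CM genes, lay at the level of the lowest E9.5 cells. The E9.5 cells without the CM genes, all of set C, were at 13060, 13163 and 13379 CPM, the lowest of that set. Within set N530 and within set N523 the summed level went with the total count of a cell (Spearman's rho 0.67 over 28 cells and 0.76 over 8), but not within set C (0.00 over 14 cells at E9.5, -0.09 over 20 at E12.5 and -0.07 over 41 at P1).

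**Figure D1:**
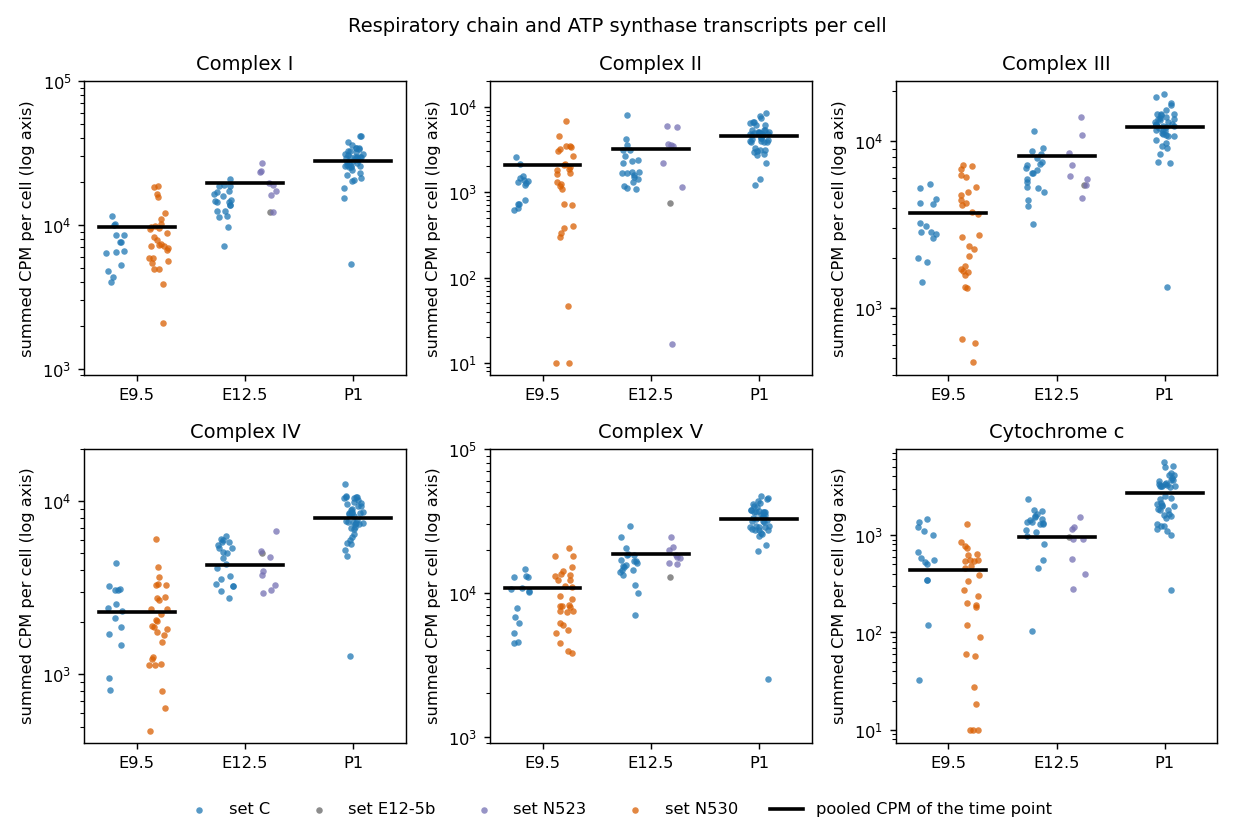
Summed CPM of each complex and of cytochrome c in every cell (log axis) by time point, with colours for naming sets, black lines for the pooled level and cells under 10 CPM drawn at 10. The P1 cells lie above nearly all E9.5 cells for complexes I, III, IV and V, and the spread among cells is widest for complex II and cytochrome c at E9.5.

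Member by member, a gene was called when its pooled level differed at least 2-fold and its ratio had the same sign, at any size, in every combination of naming sets, among genes with a mean of 10 CPM or more. Of the 82 members, 78 passed this minimum, and the 4 below it were Ndufa4l2, Ndufs5, Cox6b2 and Cox7b2. From E9.5 to E12.5, 34 of the 78 were called higher and 0 lower, against 9.11% of all 7971 genes called higher and 20.4% called lower. From E12.5 to P1, 22 (28.2%) were called higher and 0 lower, close to the 22.2% of all genes called higher, while 23.1% of all genes were called lower. From E9.5 to P1, 65 of the 78 were called higher and 0 lower, against 16.1% and 34.3% of all genes. The median log2 ratio of the members was 0.99, 0.64 and 1.54 for these comparisons, and that of all genes was -0.45, -0.02 and -0.54. Scaling by TMM, which sets library scales from trimmed log ratios between libraries, moved every log2 ratio by 0.43, -0.26 and 0.17, and then called 60, 13 and 70 members higher and 0, 1 and 0 lower, against 16%, 17.9% and 18.6% of all genes called higher. For the step from E12.5 to P1 the members' share with TMM was 16.7%, below that of all genes, whereas in set C alone and in CM-marked cells it was 35.9%, against 18.2% and 21.6% of all genes. Relative to the median of all genes the members stood 1.44, 0.66 and 2.08 higher.

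The rise was of similar size in the 5 complexes. Complex I went from 9666 to 19420 and 27777 CPM over the time points, a log2 ratio of P1 to E9.5 of 1.52 (range over naming sets 1.5 to 1.94). Complex II went from 2064 to 3184 and 4572 CPM, a log2 ratio of 1.15 (1.12 to 1.81). Complex III went from 3686 to 8147 and 12201 CPM, a log2 ratio of 1.73 (1.72 to 1.87). Complex IV went from 2302 to 4293 and 7946 CPM, a log2 ratio of 1.79 (1.71 to 1.79). Complex V went from 10882 to 18591 and 32623 CPM, a log2 ratio of 1.58 (1.57 to 1.82). With the members chosen by symbol, in pooled cells complex II had the smallest rise and complex IV the largest. In set C alone, complex I had the largest (1.94) and complex IV the smallest (1.71), with complexes II, III and V at 1.81, 1.87 and 1.82. The order of the complexes was thus not separable from the spread between naming sets.

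In pooled cells E12.5 exceeded E9.5 by log2 ratios of 1.01, 0.62, 1.14, 0.90 and 0.77 for complexes I to V, and P1 exceeded E12.5 by 0.52, 0.52, 0.58, 0.89 and 0.81. In set C alone E12.5 exceeded E9.5 by log2 ratios of 1.00, 0.89, 0.98, 0.90 and 0.84 in the same order, and P1 exceeded E12.5 by 0.94, 0.92, 0.89, 0.82 and 0.98. For complexes I and III the first step was thus the larger in pooled cells, while both steps were of like size in set C. With set N523 in place of set C at E12.5, the first step was 1.5 or 1.06 for complex I and 1.35 or 1.20 for complex III, against set C or N530 at E9.5, and the second step was 0.44 for complexes I and II, 0.52 for complex III, 0.91 for complex IV and 0.77 for complex V. One E12.5 cell, of set N523, lacked the CM genes and held 15.3% of the E12.5 counts. Without it, an alternative chosen after the values were seen, the first step was 0.95, 0.37, 0.95, 0.98 and 0.69 and the second 0.57, 0.77, 0.78, 0.81 and 0.90. Then 31, 27 and 65 members (39.7%, 34.6% and 83.3%) were called higher in the 3 comparisons, against 9.09%, 22.1% and 16.1% of all genes. Complex IV moved least with the choice of naming sets, with an SD of 0.07 over the 4 combinations for the first step, against 0.39 for complex I and 0.49 for complex II.

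**Figure D2:**
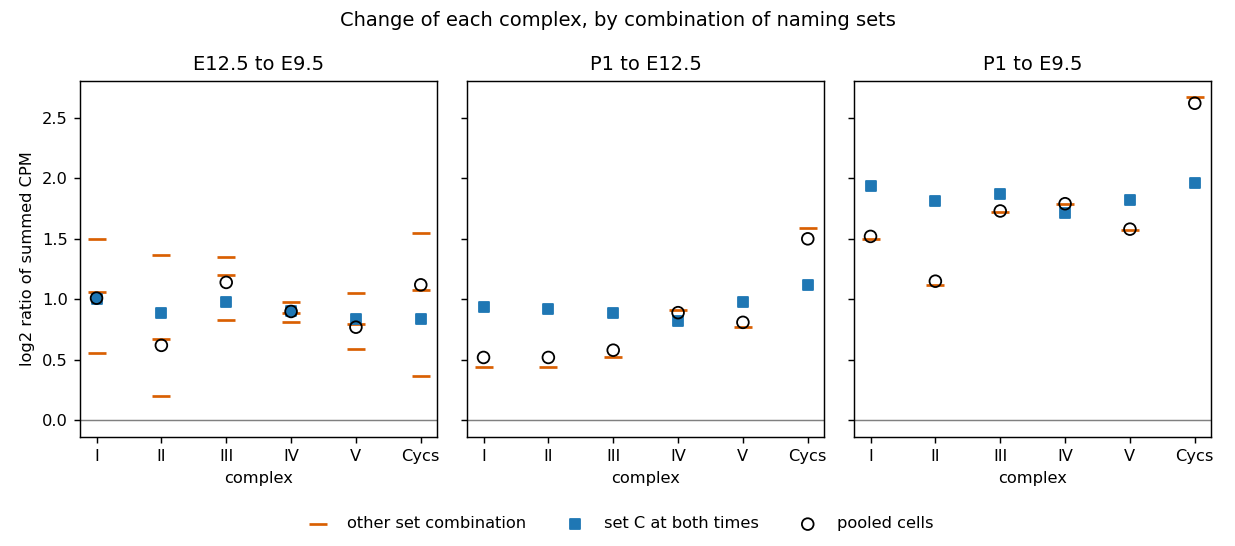
Log2 ratio of summed CPM for complexes I to V and cytochrome c (Cycs) in the 3 comparisons, with open circles for pooled cells, squares for set C at both time points and dashes for the other combinations of naming sets. All points lie above 0, and from E9.5 to P1 the 5 complexes lie between 1.71 and 1.94 in set C.

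The proportions between complexes were nearly constant in set C. Of the summed members' counts, complex I held 29.8%, 31.6% and 31.6% over the time points, and complex V held 38.1%, 36.1% and 37.1%. The shares of complexes II, III and IV stayed between 5.21% and 5.37%, 13.8% and 14.4%, and 9.05% and 10.0% respectively. In pooled cells the shares moved more, from 7.11% at E9.5 to 5.21% at P1 for complex II and from 33.3% over 35.6% to 31.6% for complex I. By the deposited TPM, which divide by gene length, complex I made up 37.1%, 36.8% and 35.2% of the members and complex V 31.3%, 29.5% and 30.7%. Across cells of one naming set, the levels of complexes I and III had Spearman's rho of 0.68 to 0.88, and those of complexes I and II of -0.19 to 0.52. The ranges were -0.76 to 0.42 for complexes II and IV, -0.05 to 0.88 for III and IV, and -0.31 to 0.90 for IV and V, each with its lowest value in set N523. These values are descriptions over 8 to 41 cells that share depth and scaling.

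Complex I is the largest complex, with 7 core subunits that carry the flavin and iron-sulfur centres and 30 accessory subunits among the members. The core genes summed to 2101, 4414 and 5836.5 CPM over the time points, and the accessory genes to 7324, 14642 and 21581 CPM, with log2 ratios of P1 to E9.5 of 1.47 and 1.56. Of the 40 complex I members above the minimum, 33 were called higher at P1 than at E9.5. By mean TPM averaged over the time points the most abundant were Ndufa4 (2334.5, 3334 and 4947 TPM over the time points) and Ndufb8 (1902, 3023 and 4636 TPM). Ndufa4, named as a complex I subunit, is now assigned to complex IV. Its pooled level of 629.5, 1016 and 1486 CPM gave a log2 ratio of P1 to E9.5 of 1.24, and counting Ndufa4 and Ndufa4l2 with complex IV, an alternative chosen after the values were seen, changed the ratio of complex IV from 1.79 to 1.68.

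Several complex I members stood apart from the rest, by a pooled log2 ratio more than 1 away from that of the other subunits, on the same side of them, at any distance, in every combination of naming sets. Ndufab1, the mitochondrial acyl carrier protein, had the largest ratio of P1 to E9.5 in the complex. Its lowest, median and highest cells held 0, 49.2 and 440 CPM (E9.5), 16.9, 252 and 881 CPM (E12.5), and 9.72, 590 and 1326 CPM (P1). Its pooled log2 ratio was 3.15, or 1.63 above the other subunits, but only 0.09 above them in set C. Ndufs3, a core subunit, was at 0, 58.9 and 266 CPM at E9.5 and at 0, 442 and 1152 CPM at P1 in the lowest, median and highest cell, with a log2 ratio of 2.89, or 1.36 above the others (0.17 in set C). For both genes the cells of E9.5 and P1 overlapped, and the excess over the complex was seen with set N530, where they were at 66.1 and 63.5 CPM against 151 and 111 CPM in set C.

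Ndufs4, an accessory subunit whose loss impairs complex I assembly, was the lowest complex I subunit in the step from E9.5 to E12.5. Its pooled level was 295, 216 and 526 CPM over the time points, with a log2 ratio of -0.45 for the first step, 1.49 below the other subunits. In set C it was 148 and 244 CPM, only 0.31 below them, and 1 cell held 34.4% of its E9.5 counts.

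The assembly factors, which help to build complex I without remaining in it, summed to 233, 362 and 360 CPM for the 4 genes, a log2 ratio of P1 to E9.5 of 0.63 (0.60 to 0.63), and they differed among themselves. Ndufaf2 was at 34.6, 49.8 and 29.2 CPM over the time points and was found in 18 of 42, 21 of 29 and 21 of 41 cells. The P1 to E9.5 log2 ratio was -0.24 (-0.81 to -0.20), or 1.78 below the complex I subunits, and 1.72 to 2.79 below them over the naming sets. Ndufaf1 was at 40.99, 31.7 and 45.2 CPM, but 1 cell held 71.7% of its E9.5 counts, and without the leading cell of each time point its distance from the complex shrank from -1.40 to -0.35. Ndufaf3 was at 52.6, 8.77 and 55.4 CPM and stood 1.46 below the subunits, but only 0.49 below them in set C, where its own log2 ratio was 1.48. Ndufaf4 was at 105, 272 and 230 CPM, a log2 ratio of P1 to E9.5 of 1.14 that passed the call. Without the leading cell of each time point it was at 88.8, 87.6 and 216 CPM. That ratio was then 1.28, while the ratio of E12.5 to E9.5, which also passed the call, fell from 1.38 to -0.02. Median cells held 0 CPM of Ndufaf1, Ndufaf2 and Ndufaf3 at E9.5, so these values rest on few cells.

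**Figure D3:**
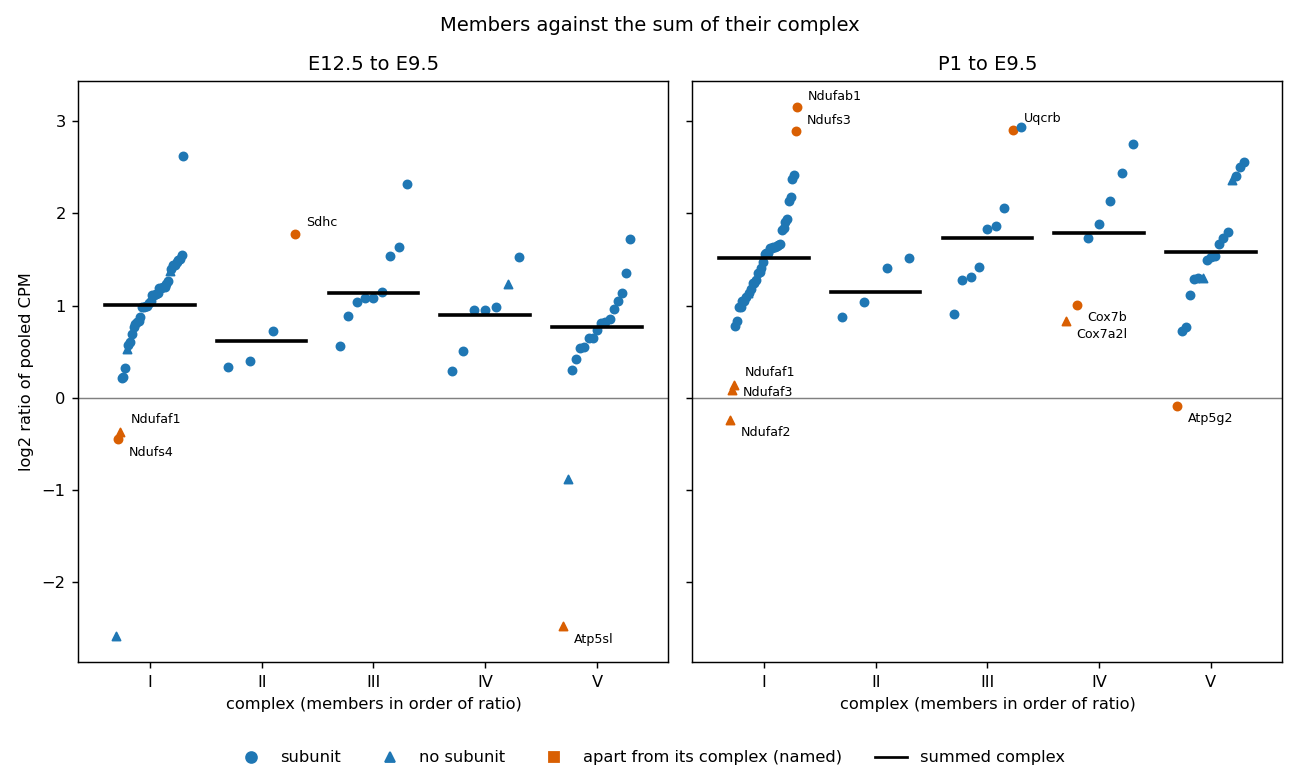
Log2 ratio of pooled CPM of E12.5 to E9.5 and of P1 to E9.5 for the members above the minimum, ordered within complexes I to V, with lines for the summed complex, triangles for members that are no subunits and orange for those that stand apart from their complex. From E9.5 to P1 Atp5g2 and Ndufaf2 lie below 0, at -0.09 and -0.24, and Ndufab1 is highest at 3.15.

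Complex II, succinate dehydrogenase, has 4 subunits, all members. Sdha, the flavoprotein, was at 527, 664 and 967 CPM over the time points, and Sdhb, the iron-sulfur subunit, was at 848, 1117 and 1737 CPM. Sdhd, a membrane anchor, was at 543, 897 and 1447 CPM. Their log2 ratios of P1 to E9.5 were 0.88, 1.04 and 1.41, of which those of Sdhb and Sdhd passed the call. Sdhc, the other membrane anchor, followed a different course. In the lowest, median and highest cell it was at 0, 50.96 and 1095 CPM (E9.5), 0, 397 and 7241 CPM (E12.5) and 42.2, 356 and 947 CPM (P1). Most of the rise of Sdhc therefore lay before E12.5, although cells of the 3 time points overlapped. Its pooled level of 147, 506 and 421 CPM gave log2 ratios of 1.78 (1.68 to 2.21) for E12.5 to E9.5 and -0.27 (-0.69 to -0.18) for P1 to E12.5. In the first step Sdhc stood 1.30 above the other complex II subunits in pooled cells, and 0.36 to 2.39 above them over the combinations of naming sets. The distance was 1.60 in set C, and 1.45 to 1.86 in CM-marked cells, by mean TPM, by mean cell CPM, or without the cell with the most counts. Complex II had a coefficient of variation between cells of 81.4% at E9.5, against 42.1% to 54.9% for the other complexes. Within set N530 it was 85.5%, and within set C it was 44.8%, against 31.6% to 41.1% for the others.

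In complex III 8 of 9 members were called higher at P1 than at E9.5. The most abundant by this average were Uqcrb (1249, 4147 and 7332 TPM) and Uqcr11 (1919, 2746 and 4574 TPM), both small accessory subunits. The lowest, median and highest cells for Uqcrb had 0, 313 and 735 CPM (E9.5), 5.84, 1128 and 2344 CPM (E12.5) and 379, 2196 and 4212 CPM (P1). The P1 to E9.5 log2 ratio was 2.91, which is 1.35 above the other subunits in pooled cells and 0.54 in set C. The Rieske protein gene Uqcrfs1 had the largest ratio, 2.94, but its range was 0.83 to 3.25, since it was at 313 CPM in set C and 58.7 CPM in set N530 at E9.5. Its pooled E12.5 level of 363 CPM was 204 CPM without the cell with the most of its counts. Cyc1, cytochrome c1, was at 227, 662 and 823 CPM with a log2 ratio of 1.86 (1.43 to 1.89). The E12.5 cell without the CM genes held 48.6% of its E12.5 counts, and without that cell the level there was 402 CPM. Uqcr10 had the smallest ratio, 0.91, and was at 412, 871 and 774 CPM. The 2 core proteins Uqcrc1 and Uqcrc2 summed to 1426, 3110 and 4131 CPM.

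In complex IV, cytochrome c oxidase, 6 of 7 members above the minimum were called higher at P1 than at E9.5. Cox6c (1757, 3383 and 6990 TPM) and Cox6b1 (1266, 2623 and 4016 TPM) were the most abundant by the same average. Cox6c was found in all 112 cells analysed, with lowest, median and highest cells at 6.55, 419 and 1024 CPM at E9.5 and at 370, 2004 and 4558 CPM at P1. Cox7c had the largest log2 ratio, 2.75 (1.94 to 2.81), at 121, 234 and 817 CPM, and its near copy Gm10012 was at 24.6, 41.4 and 14.96 CPM. Cox5a and Cox5b, which encode subunits Va and Vb, had log2 ratios of 2.44 and 1.89. Cox7b was the subunit that followed the complex least, at 630, 897 and 1270 CPM, a ratio of 1.01 that was 1.11 below the others. The distance was 1.00 in set C, 1.21 by mean cell CPM, 1.29 by mean TPM and 0.92 without the cell with the most counts. Cox7a2l, which helps to join complexes III and IV, was at 236, 553 and 419 CPM, 1.04 below the subunits from E9.5 to P1 and 0.89 below in set C. Its distance from E12.5 to P1 was -1.41 in pooled cells and -0.05 in set C, where its levels were 226, 246 and 419 CPM, against 619 CPM in set N523 at E12.5. Of the isoforms often described in testis, Cox6b2 was at 0.782, 1.94 and 3.52 CPM and Cox7b2 had no counts in any cell analysed, which, with 0 read as 3 counts of the total, allows up to 0.0297, 0.0594 and 0.440 CPM in that order. The left-out genes Cox6a1, Cox6a2, Cox7a1 and Cox7a2 summed to 1962, 4200 and 4909 CPM, and of them Cox6a2 and Cox7a2 were called higher at P1 than at E9.5.

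**Figure D4:**
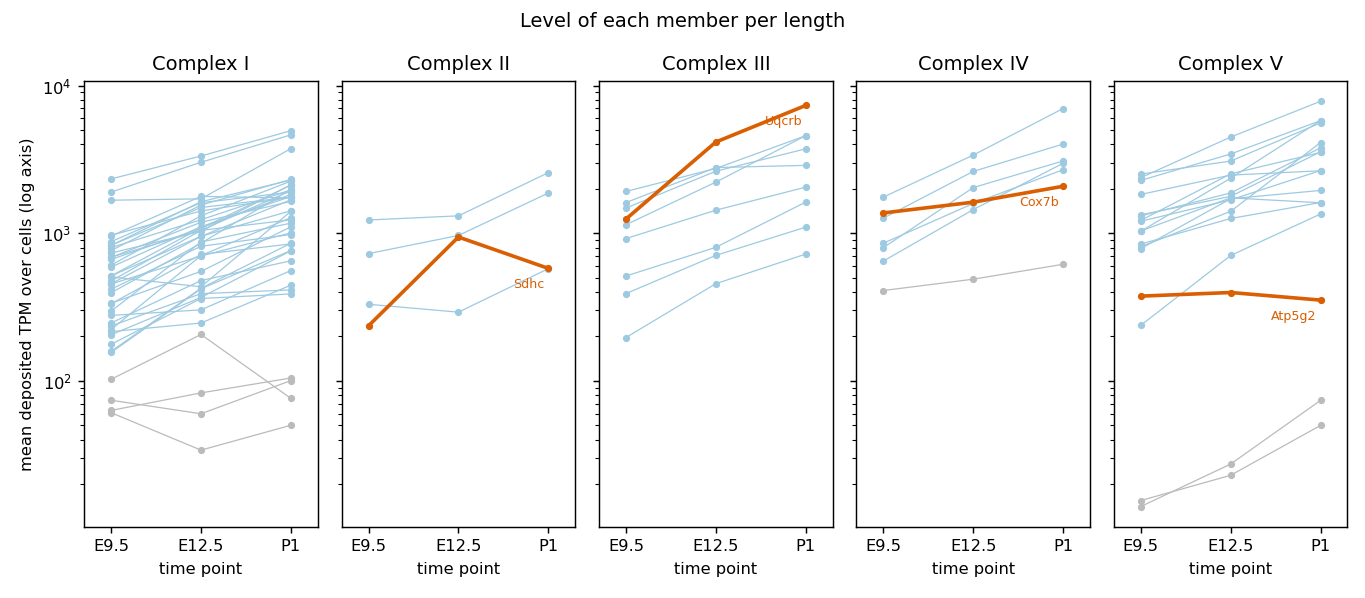
Mean deposited TPM over cells (log axis) of each member above the minimum, by complex and time point, with grey for members that are no subunits and orange for Sdhc, Uqcrb, Cox7b and Atp5g2. Sdhc peaks at E12.5 (943 TPM), and Atp5g2 stays between 353 and 397 TPM.

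In the ATP synthase, 14 of 17 members were called higher at P1 than at E9.5. The 5 genes of the F1 head and central stalk, which hold the catalytic sites, summed to 5858 CPM (E9.5), 9690 CPM (E12.5) and 15782 CPM (P1). The 4 genes of the peripheral stalk summed to 2906, 5601 and 10553 CPM, the 3 c ring genes to 1373, 2186 and 4677 CPM, and the 3 other membrane subunits, Atp5j2, Atp5k and Atp5l, to 702, 1101 and 1471 CPM. The log2 ratios of P1 to E9.5 for these groups were 1.43 (1.42 to 1.70), 1.86 (1.86 to 1.92), 1.77 (1.75 to 2.21) and 1.07 (1.05 to 1.36), so that the membrane subunits rose less than the peripheral stalk in every combination of naming sets. Among them Atp5l had the largest ratio of the complex, 2.56, while those of Atp5j2 and Atp5k, named after their values were seen, were 0.72 and 0.77. The most abundant by mean TPM averaged over the time points were Atp5o (2379, 4482 and 7824 TPM), of the peripheral stalk, and Atp5g3 (2280, 3439 and 5790 TPM).

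Subunit c is encoded by Atp5g1, Atp5g2 and Atp5g3, whose mature proteins are the same and whose import sequences differ. Atp5g1 had 0, 246 and 1277 CPM in the lowest, median and highest E9.5 cell, 125, 635 and 1369 CPM in those of E12.5, and 165, 2090 and 4778 CPM in those of P1. The same values for Atp5g3 were 0, 688 and 1945 CPM, 403, 1331 and 2372 CPM, and 131, 2477 and 4417 CPM. Those for Atp5g2 were 0, 72.9 and 730 CPM, 12.01, 112 and 468 CPM, and 0, 101 and 547 CPM. Cells of the 3 time points thus overlapped for all 3 genes, and almost fully for Atp5g2. From E9.5 to P1 the median cell of Atp5g2 moved from 72.9 to 101 CPM. That of Atp5g1 moved from 246 to 2090 CPM and that of Atp5g3 from 688 to 2477 CPM. Pooled levels of Atp5g2 were 147, 180 and 138 CPM, a log2 ratio of P1 to E9.5 of -0.09 (-0.13 to 0.69), against 2.41 for Atp5g1 and 1.53 for Atp5g3. Atp5g2 was thus 1.69 below the other subunits of the complex. It remained 1.14 to 1.69 below them in set C, by mean cell CPM, by mean TPM, in CM-marked cells, and without the cell with the most counts. As a share of the 3 genes' counts, Atp5g2 went from 10.7% over 8.24% to 2.94%, and Atp5g1 from 29.9% over 33.02% to 46.6%. In set C alone the shares of Atp5g2 were 8.48%, 6.37% and 2.94%, and those of Atp5g1 were 30.3%, 32.8% and 46.6%. The share of Atp5g1 grew mainly between E12.5 and P1.

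**Figure D5:**
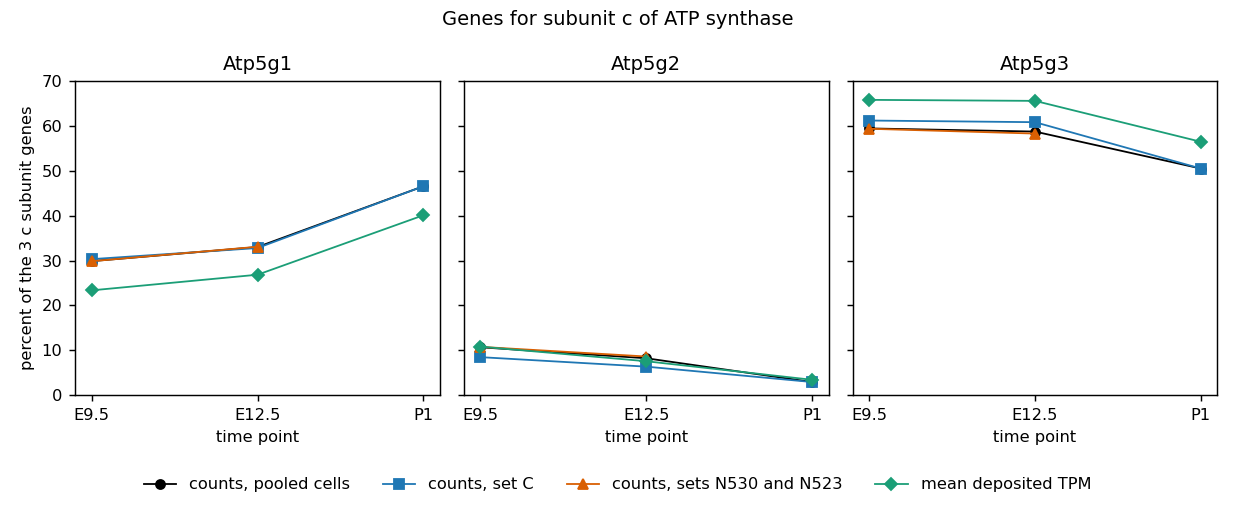
Percent of the 3 subunit c genes contributed by Atp5g1, Atp5g2 and Atp5g3 at each time point, from pooled counts, set C, the deeply sequenced sets and mean TPM. By every measure Atp5g1 gains and Atp5g2 falls, to 46.6% and 2.94% of the counts at P1.

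Other members of complex V differed from the rest only in 1 step or in some sets. Atp5e, the ε subunit, stood 1.27 below the others from E12.5 to P1 in pooled cells and 0.37 in set C, at 195, 645 and 478 CPM over the 3 time points, and its log2 ratio for that step was -0.43 in pooled cells and 0.62 in set C. Atp5s was at 13.8, 7.50 and 70.8 CPM and Atp5sl at 28.4, 5.11 and 70.1 CPM, and each was found in fewer than 20 cells of any time point. Atp5sl was at 0.0239 CPM in set N523 against 15.1 CPM in set C at E12.5. Its log2 distance from the other subunits was -3.25 in pooled cells and -0.02 in set C for the first step, and 2.97 and 1.24 for the second.

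Cycs, the electron carrier between complexes III and IV, rose more than any summed complex in pooled cells. Lowest, median and highest cells had 3.19, 473 and 1474 CPM (E9.5), 103, 1219 and 2318 CPM (E12.5) and 272, 2397 and 5578 CPM (P1). At P1 34 of the 41 cells exceeded every E9.5 cell. Pooled levels of 442, 957 and 2712 CPM gave a log2 ratio of P1 to E9.5 of 2.62, a 6.14-fold difference, with 1.96 in set C, where complexes I to V had 1.71 to 1.94. From E12.5 to P1 its ratio was 1.5 (1.12 to 1.59), above the 0.82 to 0.98 of the complexes in set C in both combinations.

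At the other end, Ndufa4l2, a paralog of Ndufa4, had counts in 6 of 42 E9.5 cells (8.53 CPM), 1 of 29 E12.5 cells (2.53 CPM) and 0 of 41 P1 cells, read by the same floor as up to 0.440 CPM. Of its E9.5 counts 86.2% came from 1 cell. Ndufs5 had 1 count at E9.5 and 0 at the later time points, while BC002163, which shares 146 of the 928 windows of 75 bases in the Ndufs5 transcripts, was at 108, 209 and 235 CPM. The values of Ndufs5 are therefore uncertain. Windows shared with other genes also made up 76.0% of Atp5l, 35.8% of Atp5g2, 35.5% of Atp5o, 29.1% of Uqcrb, 28.2% of Ndufs3 and 26.1% of Cycs, and how reads with several positions were counted is not given in the sources used here.

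Genes that work beside the chain were not uniform. The other subunits and the inhibitor (Cox4i1, Cox4i2, Cox8a, Cox8b, Cox8c, Atpif1 and Usmg5) summed to 2025, 3517 and 5286 CPM, and 4 of the 6 above the minimum were called higher at P1 than at E9.5 (Cox4i1, Cox8b, Atpif1 and Usmg5) and 1 lower (Cox4i2). Cox8b, the muscle isoform of subunit VIII, was at 1.97, 59.8 and 249 CPM, while its general counterpart Cox8a was at 384, 671 and 480 CPM. Cox4i2, the less common isoform of subunit IV, was at 43.4, 1.17 and 0 CPM in pooled cells and at 5.90, 7.18 and 0 CPM in set C, so that the lower level at E12.5 was not seen in set C, and Cox4i1 was at 1241, 1861 and 3497 CPM. The 3 genes that feed electrons from fatty acid oxidation into coenzyme Q all passed the call: Etfa at 88.03, 362 and 914 CPM, Etfb at 668, 872 and 1595 CPM and Etfdh at 111, 345 and 803 CPM. Their median log2 ratio of 2.86 exceeded the 1.54 of the members. Among all genes 16.1% were called higher and 34.3% lower in this comparison, with a median log2 ratio of -0.54. Of the 19 assembly factors tested outside the members, 7 were called higher and 1, Atpaf2, lower, with a median of 0.52. Of the 11 genes of coenzyme Q synthesis, 3 were called higher (Pdss1, Coq10a and Adck3) and 1 lower (Coq10b), with a median of 0.70. Of the 7 genes that maintain or transcribe mitochondrial DNA, 1 was called higher (Tfb2m) and 2 lower (Tfam and Polg), with a median of -0.29, and these shares lay near those of all genes. Tfam, which packages mitochondrial DNA, was at 111, 68.8 and 39.4 CPM, with a log2 ratio of -1.49 (-1.53 to -0.42).

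Promoters of the members were read for motifs of factors that are known to act on nuclear genes of mitochondrial proteins. RefSeq windows of the build GRCm38.p6, from 250 bases before to 50 after a start, were matched for 70 of the 82 members (76 windows). The letters GCGCATGCG, the core of the Nrf1 motif, stood on either strand in 11.8% of the members' windows and in 1.75% of all 32851 windows. TCAAGGTCA, the motif of the Err receptors, was in 2.63% and 0.423%, CCGGAAGT, that of Ets factors such as Gabp, in 5.26% and 3.89%, and AAGATGGCG, that of Yy1, in 11.8% and 1.4%. The windows of members were richer in G and C, with a median of 58.8% against 52.7%. A match describes letters only. The windows of 4 members are printed 5′ to 3′ on the strand of the gene, with the motif in capitals. Atp5g2, which was not called in either direction, and Cycs, which rose more than any summed complex, both hold the Nrf1 letters, in Cycs in the reverse orientation and in Atp5g2 in both, overlapping by all but 1 base. Atp5g3 and Sdhd are shown because theirs were the windows with the Err letters, in the reverse orientation.
Atp5g2, chr15:102670998-102671297, minus strand: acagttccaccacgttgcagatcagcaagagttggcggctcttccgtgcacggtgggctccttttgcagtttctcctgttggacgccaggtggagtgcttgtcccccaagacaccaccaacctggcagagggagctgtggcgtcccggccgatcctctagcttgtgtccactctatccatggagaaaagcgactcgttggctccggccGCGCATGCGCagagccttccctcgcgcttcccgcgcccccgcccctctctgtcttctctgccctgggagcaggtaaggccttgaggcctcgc
Cycs, chr6:50566520-50566819, minus strand: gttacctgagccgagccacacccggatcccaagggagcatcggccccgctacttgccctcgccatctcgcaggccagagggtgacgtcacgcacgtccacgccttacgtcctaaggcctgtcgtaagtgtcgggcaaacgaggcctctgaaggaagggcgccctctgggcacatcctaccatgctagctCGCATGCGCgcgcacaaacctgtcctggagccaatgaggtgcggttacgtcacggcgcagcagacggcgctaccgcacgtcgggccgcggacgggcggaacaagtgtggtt
Atp5g3, chr2:73911277-73911576, minus strand: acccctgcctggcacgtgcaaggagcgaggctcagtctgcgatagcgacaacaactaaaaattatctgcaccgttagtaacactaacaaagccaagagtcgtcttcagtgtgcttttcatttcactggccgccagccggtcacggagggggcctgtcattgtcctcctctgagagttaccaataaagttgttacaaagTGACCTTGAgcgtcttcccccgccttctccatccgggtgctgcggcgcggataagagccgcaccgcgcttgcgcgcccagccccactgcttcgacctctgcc
Sdhd, chr9:50603800-50604099, minus strand: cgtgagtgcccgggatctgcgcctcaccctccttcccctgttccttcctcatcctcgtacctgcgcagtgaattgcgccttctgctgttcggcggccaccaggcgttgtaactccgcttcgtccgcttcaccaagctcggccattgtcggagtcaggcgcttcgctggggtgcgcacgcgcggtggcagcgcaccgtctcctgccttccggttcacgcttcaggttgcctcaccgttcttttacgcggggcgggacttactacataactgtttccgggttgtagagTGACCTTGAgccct

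The Nrf1 letters began 42 bases before the start in Atp5g2, in an overlapping pair on both strands, and 61 bases before it in Cycs. The Err letters began 52 bases before the start in Atp5g3 and at base 37 of the transcript in Sdhd. The other members with the Nrf1 letters were Atp5k, Atp5l, Ndufa8, Ndufa11, Ndufaf4, Uqcr11 and Uqcrc1, with log2 ratios of P1 to E9.5 from 0.77 to 2.56, and any of the 4 motifs was found in 30.3% of the members' windows and 7.11% of all windows. None of the 8 windows of complex IV members held one, a number too small to set against these shares.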

How the data were processed

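Single αMHC-GFP+ cells were amplified on the Fluidigm C1 with SMART-Seq chemistry. Per their methods, the authors used OLego for mapping and featureCounts for counting, and the deposited raw counts form 1 table with a row for each gene symbol. The submitters' processing notes name GRCm38 (mm10). The authors also deposited TPM (transcripts per 1000000), computed from these counts by gene length with their own scripts. The labels give the time point of all 123 cells.

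Cells with fewer than 2000 genes were left out (11, all from P1). CPM were taken from counts pooled per time point, relative to the pooled totals. A gene was called with a mean of 10 CPM or more and a 2-fold pooled ratio whose sign held in every combination of naming sets of 6 or more cells. A count of 0 was read as 3 counts of the total. There was no replicate of a time point, so the Poisson intervals cover counting error only, the libraries having no molecular identifiers. Genes named are, per complex, the 2 with the highest mean TPM, those with the largest and smallest ratio of P1 to E9.5, those apart from their complex, isoform sets, complex II, Cyc1, Cycs and genes at 0, together with fixed lists of related genes. Members, lists and rules were chosen with earlier results of these data known. TMM factors came from edgeR 4.0.16 (R 4.3.3), and the other steps from Python 3.11.15 with pandas 2.3.3 and scipy 1.17.1, tested on simulated counts. Alternatives were other gene minimums, scalings, naming sets, folds, CPM minimums, equal depth, CM-marked cells, cells without titles ending in "no", and subsets of members. Promoters were taken from RefSeq.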

Additional observations from a re-analysis of the deposited data

Results flagged for a closer look

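The 11 P1 cells with fewer than 2000 genes, which entered no comparison, had total counts from 4903 to 149120. Their summed members were at 104197.8 CPM (95% Poisson interval 103451 to 104949), higher than the 87830 CPM of the 41 P1 cells analysed. Complex I was at 33287 CPM, complex II at 5027, complex III at 15358, complex IV at 9832 and complex V at 37588 CPM in these cells, each above the level of the cells analysed. The cause was not tested.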

How the results depend on the processing

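No summed complex changed direction under the alternatives tried, except that without its 3 leading members complex II, then Sdhc alone, had a log2 ratio of P1 to E12.5 of -0.27 (and 1.78 for E12.5 to E9.5). Among the recomputed complex ratios and counts of members, 210 stayed within the spread between naming sets or, for counts, within 1.5 times. Of the rest, 56 moved further and 1 reversed. In set C 5 of the 15 complex ratios stayed within that spread, and with TMM factors 6 of 15. Among the other values recomputed, on single members and shares, 82 stayed, 20 moved and 32 were weaker. Single genes did change sign with the naming sets: of the 78 members tested, 16, 12 and 2 had ratios on both sides of 0 for E12.5 to E9.5, P1 to E12.5 and P1 to E9.5. The log2 ratio of Atp5g2 for P1 to E9.5 (-0.09 pooled) was 0.69 in set C, that of Atp5sl for E12.5 to E9.5 was -2.48 pooled and 0.81 in set C, and for the same step those of Ndufs4 and Atp5s were -0.45 and -0.88 pooled and 0.72 and 1.47 in set C. For P1 to E12.5, Atp5e and Cox7a2l were at -0.43 and -0.40 pooled and at 0.62 and 0.77 in set C. In set C alone, the log2 ratio of P1 to E12.5 was 0.94, 0.92, 0.89, 0.82 and 0.98 for complexes I to V, and that of P1 to E9.5 was 1.94, 1.81, 1.87, 1.71 and 1.82. With TMM factors, E12.5 to E9.5 was 1.44, 1.57, 1.33 and 1.20 for complexes I, III, IV and V, P1 to E12.5 was 0.25, 0.26, 0.32, 0.63 and 0.55 for complexes I to V, and P1 to E9.5 was 1.90 and 1.96 for complexes III and IV. For complex III, P1 to E9.5 was 1.87 by the mean of cell CPM, 1.60 by mean TPM, 1.86 after thinning to 100000 counts (3 P1 cells were too shallow) and 1.92 without the 3 leading members. For complex IV, whose spread was smallest, E12.5 to E9.5 was 0.72 with 3000 or more genes, 1.00 by the mean of cell CPM and after thinning, 0.97 in CM-marked cells, 0.98 without the E12.5 cell lacking CM genes and 1.07 without the leading members. Its P1 to E12.5 was 1.1 with 3000 or more genes, 0.77 by mean TPM, 0.82 after thinning, 0.81 without that E12.5 cell, 1.01 with subunits only and 0.96 without the leading members. Its P1 to E9.5 was 1.85 by the mean of cell CPM, 1.66 by mean TPM, 1.87 with subunits only, 2.03 without the leading members, 1.89 as the median over members and 1.68 with Ndufa4 and Ndufa4l2. The cause of these shifts was not tested. At 1.5-fold, 55 members were higher from E9.5 to E12.5 and 42 from E12.5 to P1, and at 3-fold 5 and 7, with 35 from E9.5 to P1. All genes were called higher at 11.8% and 26% (1.5-fold) and at 5.86%, 17.4% and 10.6% (3-fold), so the 3-fold counts of the single steps lay near or below the background. TMM factors gave 60 and 13 for the single steps. Without the cell with the most counts of a member, also chosen after seeing the data, 8 of the 34 members called higher from E9.5 to E12.5 (Cox7a2l, Ndufa1, Ndufa2, Ndufa7, Ndufaf4, Ndufc2, Ndufs1 and Uqcrc1) were below 2-fold, and 0 of those called in the other comparisons. Members apart from their complex numbered 4, 6 and 9 in the 3 comparisons. Of these, 2, 3 and 3 stayed more than 1 away on the same side in set C. For the single steps 2 and 2 of them did by the mean of cell CPM, and 2 and 1 by mean TPM. The other members were not screened under these alternatives. Depth limits P1 most, where 1 count is 0.147 CPM of the pooled cells. No paired analysis was possible because each time point was 1 sample, with no test.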
